A study of Mus musculus with 22 samples.

Results

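The co-occupancy of 5 chromatin immunoprecipitation (ChIP-seq) targets in wild-type (WT) mouse regulatory T cells (Treg cells) is described from 10 deposited peak lists, 2 libraries each of Foxp3, Ikaros, NFAT1, the coactivator p300 and H3K27ac, the acetylated lysine 27 of histone H3. The series describes 22 samples, of which 18 have a peak list; 8 of these come from cells with the genotype IkE5-deletion and were not used. Cells with the genotype WT were primary Treg cells from spleen and lymph nodes, stimulated for 1 h with a commercial cell stimulation cocktail and fixed with 1% formaldehyde, for 5 min before histone ChIP and for 30 min before factor ChIP. The antibodies came from Abcam (Foxp3, NFAT1, p300), Sigma-Aldrich (Ikaros) and GeneTex (H3K27ac). All 10 libraries share the tissue, the stimulation and the genotype, and there is no unstimulated group. The labels do not say whether libraries of a target came from separate animals, nor the strain, sex or age of the mice.

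A target's regions were those where peaks of both of its libraries overlapped by at least 1 bp, which left 10885 regions for Foxp3, 16672 for Ikaros, 5301 for NFAT1, 6868 for p300 and 27503 for H3K27ac. Merging the sets of the 3 transcription factors and p300, called the 4 factors below, gave 19849 regions. Every one of the 15 possible combinations occurred. All 4 factors were present at 2509 regions, 12.6% of the total.

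Foxp3 is the forkhead transcription factor that defines the Treg lineage, and it works in complexes with many other DNA-binding proteins. Ikaros, the product of Ikzf1, is a zinc finger factor of lymphocytes that recruits chromatin remodelling and deacetylase complexes. NFAT1, the product of Nfatc2, enters the nucleus when calcineurin removes its phosphates after a calcium signal, and it can bind DNA next to Foxp3. p300 is a histone acetyltransferase that acetylates H3K27, a mark of active promoters and enhancers.

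The peak lists carried H3K27ac at the genes that define the cell type. Of 7 Treg markers (Foxp3, Il2ra, Ctla4, Ikzf2, Cd3e, Cd4 and Tnfrsf18), 7 had H3K27ac in both libraries in the gene or within 1 kb, where 54.4% of all protein-coding genes did. Among markers of other cells, 6 of 12 B-cell genes had the mark (Pax5, Ebf1, Cd79a, Cd79b, Blk and Spib, but not Ms4a1), as did 3 of 12 myeloid genes and 3 of 10 CD8 T-cell and NK-cell genes, Cd8a and Cd8b1 among them. Genes of other tissues had it in 2 of 18 cases. The part of other cells in the peak lists was not tested.

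Promoters show what a region of all 4 factors can cover. The windows below hold the 250 bases before the start of 5 genes of the Treg, activation, Foxp3-partner and Ikaros-complex lists whose window was overlapped by such a region, each of them in H3K27ac. Capitals mark matches, on either strand, to 5 core motifs: TGGGAA for Ikaros, GGAAA for NFAT, GTAAACA for forkhead factors such as Foxp3, CCGGAAG for ETS factors and TGANTCA for AP-1. The Ikaros and NFAT letters can overlap. The sequences are from RefSeq, assembly GRCm38.p6, and run 5′ to 3′ on the gene's strand.
Batf: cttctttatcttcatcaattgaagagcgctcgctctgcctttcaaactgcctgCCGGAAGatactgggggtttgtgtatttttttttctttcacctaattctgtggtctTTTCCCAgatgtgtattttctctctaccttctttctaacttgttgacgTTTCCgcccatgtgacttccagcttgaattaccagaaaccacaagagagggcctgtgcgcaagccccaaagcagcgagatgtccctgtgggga
Mta2: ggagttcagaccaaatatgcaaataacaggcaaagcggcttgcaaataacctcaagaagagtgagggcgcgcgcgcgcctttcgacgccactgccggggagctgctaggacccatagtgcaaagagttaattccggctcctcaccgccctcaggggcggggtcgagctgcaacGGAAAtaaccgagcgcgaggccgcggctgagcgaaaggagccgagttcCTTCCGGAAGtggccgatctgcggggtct
Egr2: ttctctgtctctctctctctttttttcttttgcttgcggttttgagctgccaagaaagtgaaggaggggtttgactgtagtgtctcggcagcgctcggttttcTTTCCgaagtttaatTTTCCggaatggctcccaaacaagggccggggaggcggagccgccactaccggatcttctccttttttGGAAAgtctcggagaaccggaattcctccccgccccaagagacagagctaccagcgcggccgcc
Runx1: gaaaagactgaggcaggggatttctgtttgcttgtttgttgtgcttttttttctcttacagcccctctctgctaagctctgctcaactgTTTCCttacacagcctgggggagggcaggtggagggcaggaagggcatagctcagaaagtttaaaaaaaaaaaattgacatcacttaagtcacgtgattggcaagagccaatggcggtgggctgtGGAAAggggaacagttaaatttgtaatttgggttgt
Tigit: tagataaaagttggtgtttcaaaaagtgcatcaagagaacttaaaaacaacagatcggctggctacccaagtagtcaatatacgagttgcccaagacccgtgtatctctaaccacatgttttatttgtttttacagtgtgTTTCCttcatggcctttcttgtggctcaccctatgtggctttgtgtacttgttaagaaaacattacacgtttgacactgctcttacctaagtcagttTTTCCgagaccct
Batf, an AP-1 family factor of activated T cells, starts on the plus strand (window chr12:85686470-85686719) and carries 1 Ikaros, 2 NFAT and 1 ETS match. Mta2, a subunit of the nucleosome remodelling and deacetylase (NuRD) complex, has its window at chr19:8941670-8941919 on the plus strand, with 1 NFAT match and a pair of overlapping ETS matches on opposite strands. Egr2, an immediate early factor that NFAT activates, has 3 NFAT matches at chr10:67537316-67537565 on the plus strand. Runx1, a DNA-binding partner of Foxp3, has 2 NFAT matches at chr16:92826075-92826324 on the minus strand. Tigit, a coinhibitory receptor of Treg cells, also has 2 at chr16:43664185-43664434 on the minus strand. None of these 5 windows holds the forkhead or the AP-1 letters.

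Across all promoter windows of that kind, the letters were distributed as follows. ETS letters were in 24.2% of the 629 windows overlapped by a region of all 4 factors, in 22.1% of the 2707 windows overlapped by Foxp3 with Ikaros only, and in 8.98% of all 21263 windows; windows that no region touched had them in 3.66%. NFAT letters were in 69.8% of the windows with all 4 factors and in 75% of the 192 windows with Foxp3, Ikaros and NFAT1 but not p300, against 56.2% with Foxp3 and Ikaros only and 54.6% of all windows. Forkhead letters were in 2.86% and Ikaros letters in 19.1% of the windows with all 4 factors, against 2.62% and 20.9% of all windows. Windows with all 4 factors had a median GC content of 58.4%, against 55.6% for all windows and 52.4% for windows no region touched. The part of GC content in these shares was not tested, and a match is a run of letters, not a measured site.

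Foxp3 with Ikaros but without NFAT1 or p300 was the most frequent combination of more than 1 factor, with 4654 regions. Regions of all 4 factors came next with 2509, followed by 1814 regions of Foxp3, Ikaros and p300. NFAT1 with p300 only had 718 regions, Ikaros with NFAT1 and p300 had 693, Ikaros with p300 only 538, Foxp3 with Ikaros and NFAT1 416 and Ikaros with NFAT1 only 273. Pairs and triplets that held Foxp3 without Ikaros were rare: 84 regions with NFAT1 and p300, 62 with p300 only and 51 with NFAT1 only. Single-factor regions numbered 5756 for Ikaros, 1285 for Foxp3, 551 for NFAT1 and 445 for p300. Peak lists differ in length, and a long list can meet more regions than a short one, so these counts describe the lists and not affinity. Where both Foxp3 and Ikaros had a region, p300 was also there at 46.0% of 9393 regions. The share was 17.0% of the 7260 Ikaros regions without Foxp3 and 9.85% of the 1482 Foxp3 regions without Ikaros. NFAT1 followed the same order, with 31.1%, 13.3% and 9.11%. The order of the lower shares depended on the library: in the libraries numbered 1 alone they lay close together for p300 and for NFAT1. Regions with Ikaros and p300 but without Foxp3 mostly had a Foxp3 peak in library 1 only. These were 647 of 693 with NFAT1 and 422 of 538 without.

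**Figure D1:**
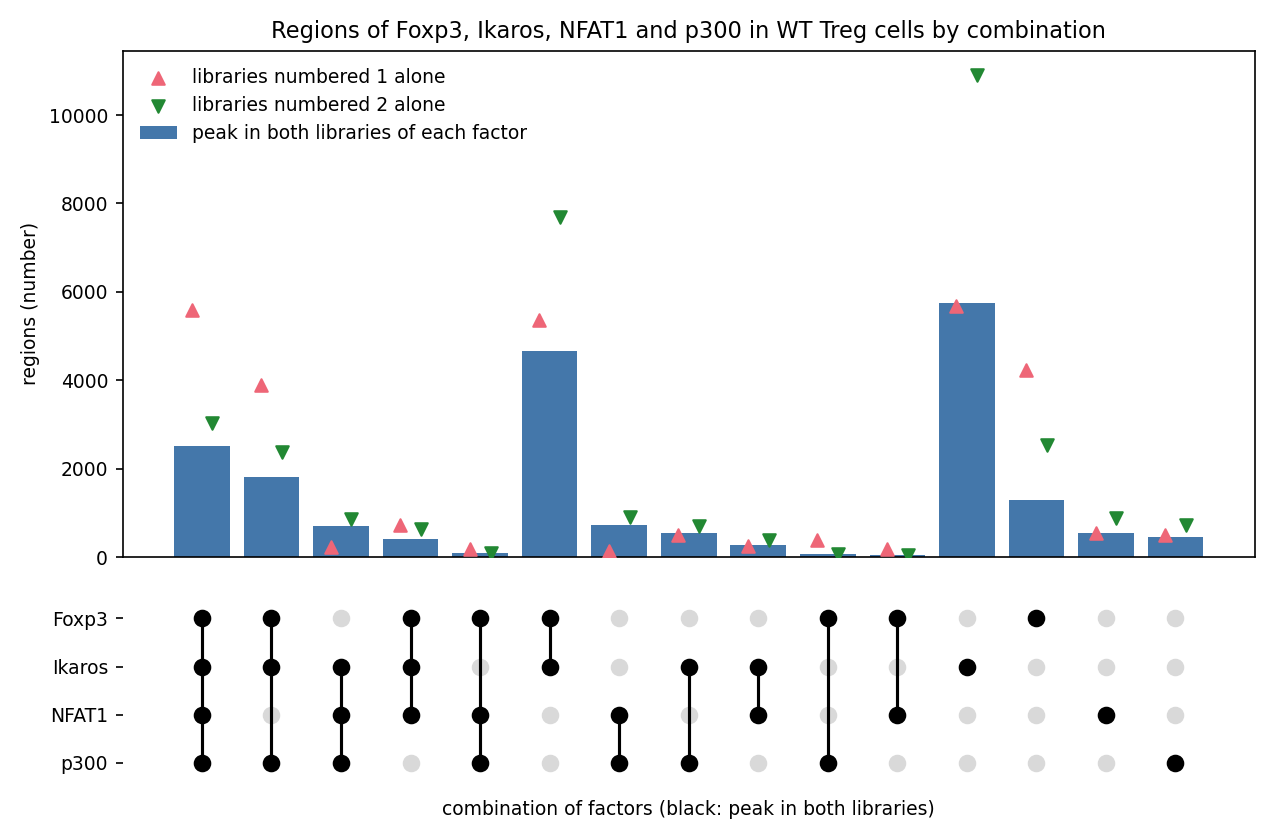
Number of regions in each combination of Foxp3, Ikaros, NFAT1 and p300 in WT Treg cells. Bars need a peak in both libraries of each factor; triangles show the count from the libraries numbered 1 alone (up) and from those numbered 2 alone (down). With all 4 factors the bar stands at 2509, the libraries numbered 1 give 5585 and those numbered 2 give 3029.

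Within regions of all 4 factors the peaks lay on top of each other. A base covered by all 4 factors existed in 2485 of 2509 regions (99.0%), and only 24 were joined as a chain. In the 2441 of these regions where every list had a single peak, the centres of the 2 Foxp3 libraries were a median of 53 bp apart, those of Ikaros 44 bp, those of p300 41 bp and those of NFAT1 35 bp. Peaks in these lists are 500 bp wide, with a single shorter peak in 3 of the 8 lists. Distances between different factors were of the same size and depended on the library. The first Foxp3 library had its centres 31 bp from those of the first p300 library and 37 and 38 bp from those of the NFAT1 libraries, less than the 53 bp to the second Foxp3 library. Centres of the second Foxp3 library were 60 and 62 bp from p300 and 66 and 69 bp from NFAT1. Ikaros had the same pattern, with 34 to 41 bp from its first library to NFAT1 and p300 and 51 to 58 bp from its second. Which library was used moved the distances by as much as which factor was. The distances carry no direction, so the order of the factors along the DNA was not examined.

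**Figure D2:**
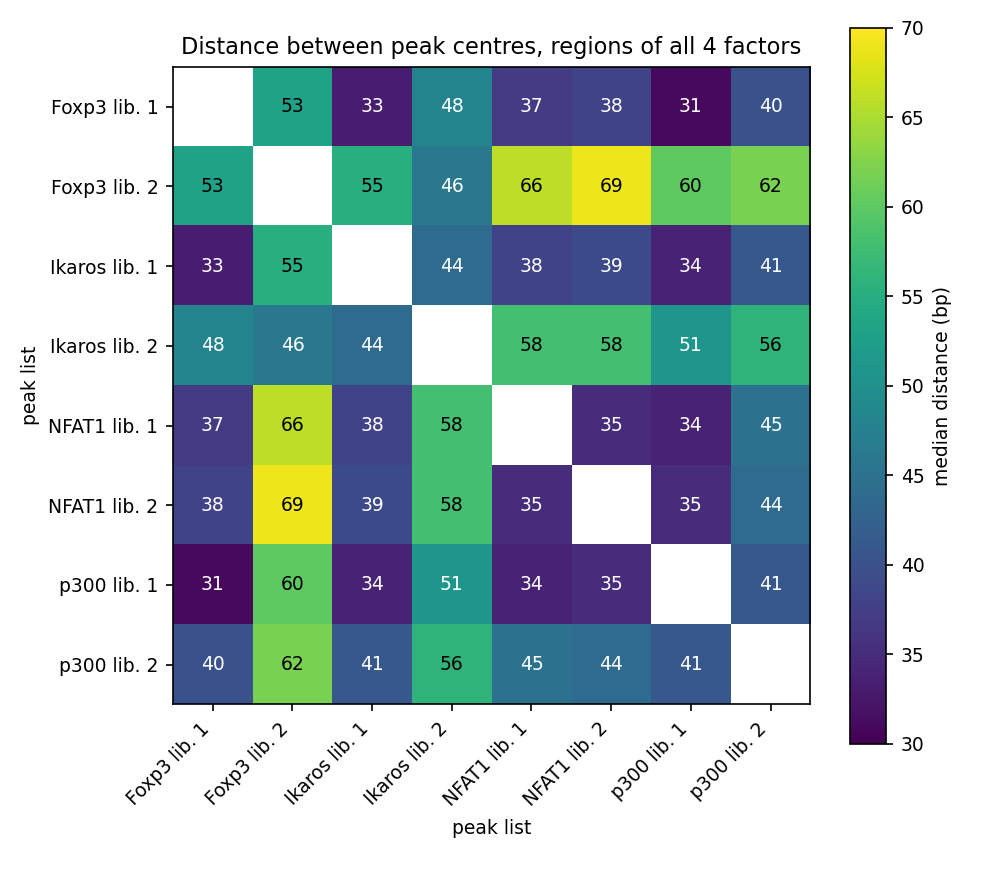
Median distance in bp between the peak centres of each pair of the 8 factor lists, over 2441 regions of all 4 factors where every list has a single peak; colour gives the same value. The second libraries of Foxp3 and Ikaros lie farther from NFAT1 and p300 (51 to 69 bp) than the first libraries do (31 to 41 bp).

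In every combination that held NFAT1 or p300 but lacked Foxp3 or Ikaros by the rule, most regions did have a peak of the missing factor, in its first library only. Of the 718 regions of NFAT1 with p300 only, 666 (92.8%) had a Foxp3 peak in library 1 and none in library 2, and 3 the reverse. Ikaros had a peak in library 1 only at 653 of them and in library 2 only at 10. For the 693 regions of Ikaros, NFAT1 and p300, Foxp3 was in library 1 only at 647 (93.4%) and in library 2 only at 11. The 445 regions of p300 only had Foxp3 in library 1 only in 79.6% of cases and Ikaros in library 1 only in 75.7%. Regions of Foxp3 alone went the other way for Ikaros, with a peak in library 2 only at 759 of 1285 and in library 1 only at 181. At the 5756 regions of Ikaros alone, Foxp3 was split more evenly, in library 1 only at 30.7%, in library 2 only at 27.1% and in neither at 41.3%.

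Taken over all 4004 regions with both NFAT1 and p300, the 4 Foxp3 and Ikaros libraries differed widely. Foxp3 peaks were at 98.2% of these regions in library 1 and at 65.7% in library 2. Ikaros peaks were at 98.4% in library 1 and at 80.8% in library 2. A peak of neither factor in any library was found at 14 of the 4004. Away from gene starts the gap was wider: of 3091 regions farther than 1 kb from a start, Foxp3 was at 98.3% in library 1 and at 62.1% in library 2, and near starts, over 809 regions, at 97.5% and 78.5%. The number of regions of NFAT1 with p300 only was therefore set by the second libraries of Foxp3 and Ikaros: it was 50 without the second Foxp3 library and 58 without the second Ikaros library, and 715 and 704 without the first ones, where all libraries gave 718. The 693 regions of Ikaros, NFAT1 and p300 became 25 without the second Foxp3 library and 1359 without the second Ikaros library. These counts were added after seeing the data. The second Foxp3 list was the shorter one, with 16526 peaks against 20608, but the second Ikaros list was the longer one, with 26641 against 22297. Whether depth, enrichment or the cells of a preparation differed between the libraries was not tested.

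**Figure D3:**
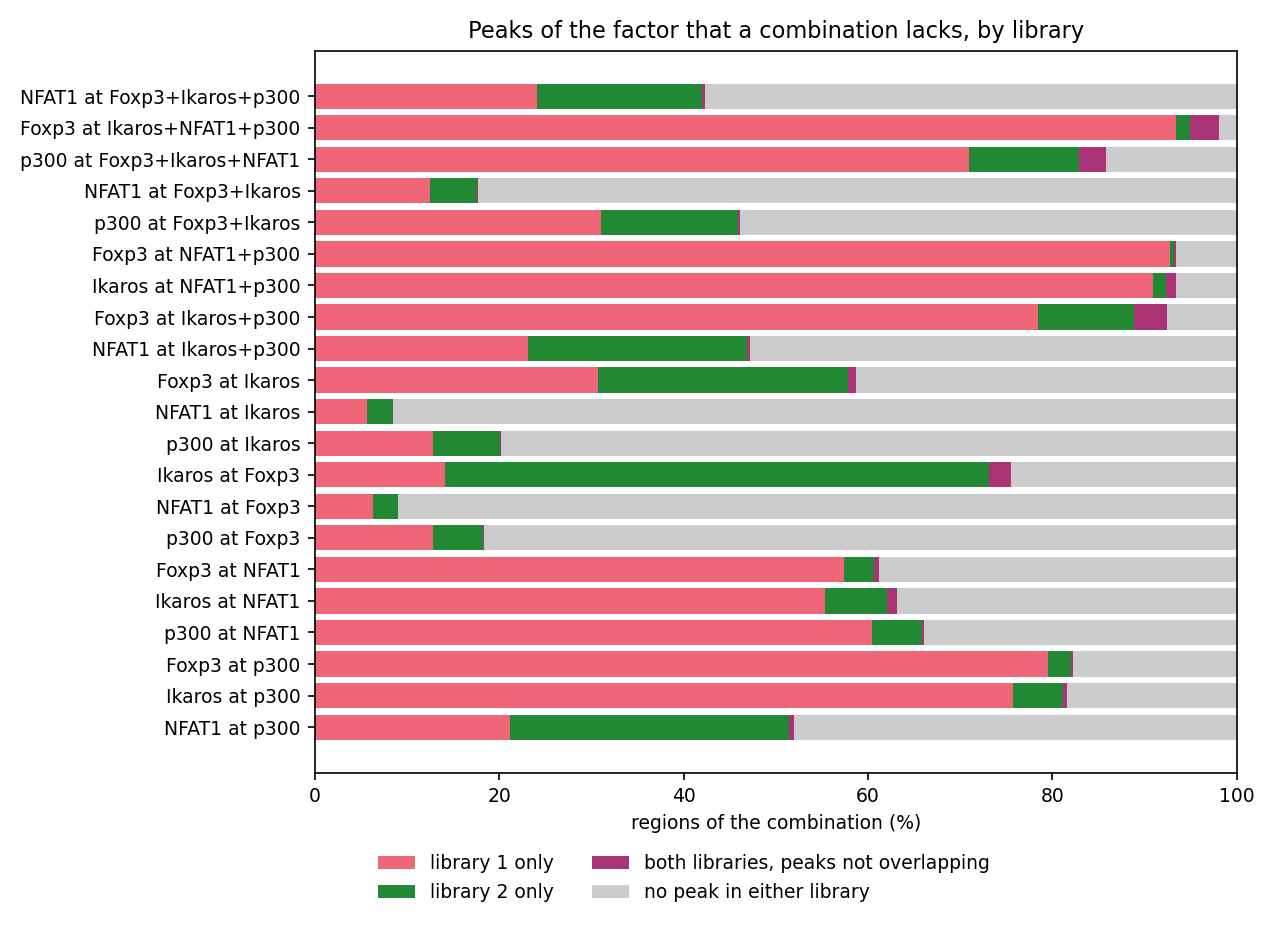
For each combination of at least 400 regions, the share of regions (%) in which the factor it lacks had a peak in library 1 only, in library 2 only, in both without overlap, or in neither. Foxp3 and Ikaros at NFAT1 with p300 were found in library 1 only at 92.8% and 90.9% of regions, while NFAT1 at Foxp3 with Ikaros was absent from both libraries at 82.4%.

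The reverse absence held in both libraries far more often. Of the 4654 regions of Foxp3 with Ikaros only, 3833 (82.4%) had no NFAT1 peak in either library and 2507 (53.9%) had no p300 peak in either. No peak of NFAT1 or p300 in any of 4 libraries was found at 2230 (47.9%). Over all 9393 regions with Foxp3 and Ikaros, NFAT1 was at 42.1% in library 1 and at 37.3% in library 2, and p300 at 64.8% and 54.1%. Absence from a list means that no peak passed the authors' threshold, for which no value was at hand. The NFAT1 and p300 lists held 6850 to 11457 peaks, and the Foxp3 and Ikaros lists 16526 to 26641. The part of list length in this contrast was not tested.

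H3K27ac covered nearly all regions of all 4 factors. The mark, which took no part in choosing regions, was present in both libraries at 96.2% of them, at 93.4% of regions of Foxp3, Ikaros and p300 and at 91.7% of regions of Foxp3 with Ikaros only, where the share over all 19849 regions was 83.4%. Regions of p300 alone had 57.8%, of Ikaros alone 71.7%, of Foxp3 alone 72.6% and of NFAT1 alone 81.9%. This order depended on the H3K27ac library: library 1 by itself gave p300 alone 86.7%, above Ikaros alone with 80.1% and Foxp3 alone with 79.5%, while library 2 gave 52.4%, 73.0% and 74.3%. By the number of factors present, the share was 71.7% with 1, 89.3% with 2, 91.8% with 3 and 96.2% with 4. The median width of the H3K27ac region that held them was 2126, 2205, 2562 and 3285 bp. Each H3K27ac library gave a high share for all 4 factors, 98.2% and 96.5%, whereas the libraries split at NFAT1 with p300 only (94.8% and 74.2%). Without the regions near gene starts the contrast was larger, 94.9% for all 4 factors and 61.8% for Ikaros alone. Counting lists in place of factors, the share was 57.2% at regions with a peak in 2 of the 8 factor libraries and 96.3% at those with a peak in 8. Peak strength is not in the lists, and its part in this order was not tested.

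Gene starts ordered the combinations differently. Of regions on chromosomes with annotated starts, 24.4% of those with all 4 factors lay within 1 kb of a start, where the share over all regions was 34.2%. Regions of Foxp3 with Ikaros only reached 51.7%, of Foxp3, Ikaros and p300 44.7% and of Foxp3, Ikaros and NFAT1 40.9%. The lowest shares were at NFAT1 with p300 only (14.7%), NFAT1 alone (13.3%), Ikaros with NFAT1 and p300 (12.8%) and p300 alone (12.1%). Most regions of these combinations had a peak of a missing factor in some library. Those without such a peak were few, 14, 69, 13 and 17 in that order. Their start shares were 21.4%, 10.4%, 25% and 18.8%. Among p300 regions, 20.7% of those with NFAT1 were near a start and 35.3% of those without. All of the 595 start-proximal regions with 4 factors had H3K27ac in both libraries, and 92.1% of the start-proximal regions of Ikaros alone. Starts were at hand for 17492 of 21887 protein-coding genes, so the shares of regions near a start are lower bounds. This does not hold for the H3K27ac shares of start-proximal regions.

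**Figure D4:**
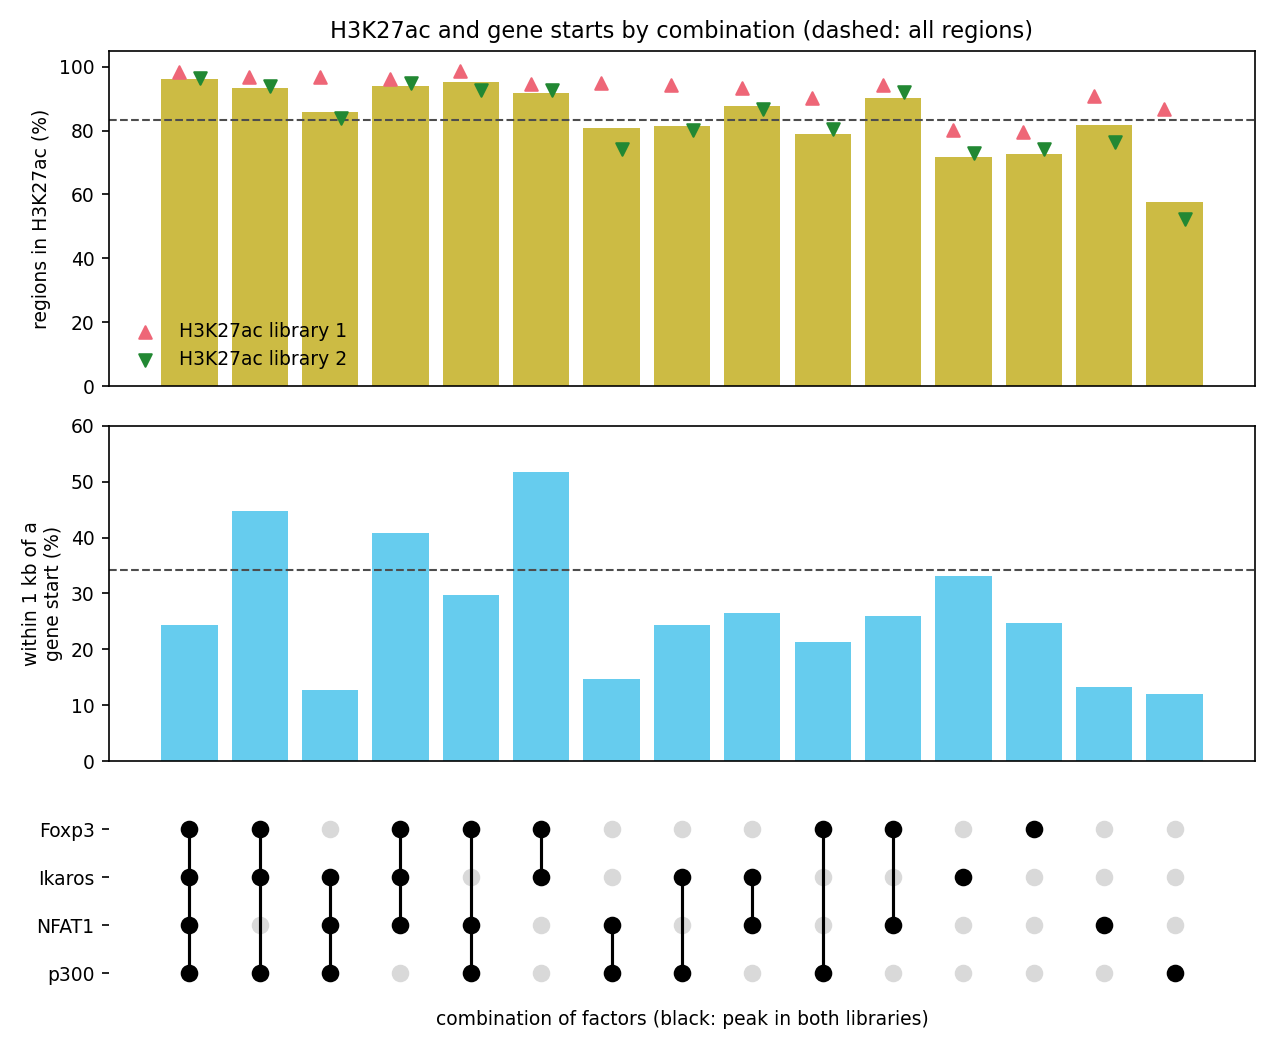
Share of regions (%) within H3K27ac, upper panel, and within 1 kb of an annotated gene start, lower panel, for each combination of factors, marked by black dots. Bars need the mark in both libraries, triangles give each H3K27ac library alone and dashed lines the share over all regions, 83.4% and 34.2%; regions of all 4 factors stand at 96.2% and 24.4%.

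Whether the targets themselves differed was tested with 1 value per library. The share of peaks in H3K27ac averaged 78.2% ± 3.02 for Foxp3, 75.2% ± 3.90 for Ikaros, 87.5% ± 0.154 for NFAT1 and 86.4% ± 1.57 for p300 (SD, n = 2 each). No NFAT1 or p300 library fell as low as any Foxp3 or Ikaros library. An exact permutation test of the F ratio over the 8 libraries gave p = 0.0476, and 0.0952 after Benjamini-Hochberg adjustment over the 2 measures tested, so the difference did not pass 0.05. The share near a gene start averaged 32.1% ± 5.13 for Foxp3, 31.2% ± 0.695 for Ikaros, 23.3% ± 0.214 for NFAT1 and 28.6% ± 1.60 for p300. The same exact permutation test gave p = 0.0952, adjusted 0.0952. The wide spread of Foxp3 came from 28.5% in its first library and 35.7% in its second. Leaving out either Foxp3 library leaves a lone library assumed to vary like the other targets, so no conclusion is drawn from such a fit. With both libraries kept, the difference in start share did not pass 0.05. The smallest p this design allows is 0.00952.

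Seen from H3K27ac, regions of all 4 factors were a small share of the acetylated regions. Of 27503 H3K27ac regions, 2385 (8.67%) held at least 1 region of all 4 factors and 28 held 2 or more. Other factor regions only were in 12758 (46.4%), and no factor region was in 12360 (44.9%). Median widths were 3251, 2134 and 1227 bp in that order for all 4 factors, other factor regions and none.

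At the level of genes, a region of all 4 factors lay in 2062 of 21887 protein-coding genes or within 10 kb of them, 9.42% of genes. For Foxp3, Ikaros and p300 only the share was 9.95%, for Foxp3 with Ikaros only 24.8%, and for a region of any factor 55.5%. Of the genes with a region of any factor, 17% had one of all 4. The 4-factor genes and the genes with Foxp3 and Ikaros only shared 601 members, 29.1% of the 4-factor genes and 11.1% of the others. Long genes hold more regions: the share with all 4 factors was 4.95% for genes under 10 kb, 10.1% from 10 to 50 kb, 14.8% from 50 to 150 kb and 16.5% for longer ones. Gene lists are read below against 9.42%, with their median gene length beside them. The lists were chosen with earlier results of these data known, so their shares are descriptions. A region within 10 kb of several neighbouring genes counts for each of them.

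Regions of all 4 factors were frequent at genes of Treg identity and T-cell signalling. Of 25 Treg signature genes (median length 18.1 kb), 13 had one, among them Il2ra (the high-affinity IL-2 receptor chain), Ikzf2 (Helios), Entpd1 (the ectonucleotidase CD39) and Izumo1r (folate receptor 4) with 2 each. Icos, the inducible costimulator, and Tgfb1 had regions of other combinations and none of all 4. Costimulatory and T-cell receptor genes had one in 9 of 17 (26.97 kb), with 2 at Cd28, the receptor for B7 ligands. Coinhibitory genes had one in 7 of 15 (29.2 kb), with 4 at Cblb, a ubiquitin ligase that restrains T-cell activation, 3 at Tox and 2 at Btla. Genes of naive and quiescent T cells had one in 9 of 19 (23.8 kb), led by the repressors Foxp1 with 7 and Bach2 with 5. Cytokine receptors had one in 8 of 18 (33.8 kb), and feedback genes of cytokine signalling in 5 of 12 (29.8 kb), with 3 at Cish, a SOCS family inhibitor. These shares, from 41.7% to 52.9%, were all above the 9.42% of all genes and above the 16.5% of genes that carry H3K27ac and of the longest genes. Without the second Foxp3 and the second Ikaros library, all 4 factors were at 19 of 25 Treg signature genes, 12 of 17 costimulatory genes and 12 of 15 coinhibitory genes, where 12.8% of all genes had such a region. The naive list stayed at 9 of 19.

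Genes of the factors' own pathways had such regions as well. Calcium and NFAT signalling had one in 7 of 17 genes (74.2 kb), with 2 each at Stim1, the calcium sensor of the endoplasmic reticulum, at Itpr1, a calcium release channel, and at Dyrk1a, a kinase that promotes NFAT export from the nucleus. Coactivator genes had one in 6 of 13 (83.8 kb), Foxp3 partners in 7 of 22 (61.2 kb) and the Ikaros family with its corepressors in 6 of 20 (34.8 kb), led by Ikzf1 with 3. NF-kB genes had one in 6 of 17 (14.5 kb), T-helper regulators in 5 of 17 (25.5 kb) and activation genes in 6 of 25 (5.25 kb), with 2 at Cd69. Chemokine and homing receptors had one in 3 of 17 (14.7 kb), or 17.6%, near the 16.5% of genes that carry H3K27ac.

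The remaining lists had shares near or below the 9.42% of all genes, except ribosomal protein genes at 13.6%, TNF family ligands at 15.4% (2 of 13, Fasl and Tnfsf14) and B-cell markers at 16.7%. Of 15 effector cytokine genes (3.59 kb), 1 had a region of all 4 factors, Il9. Without the second Foxp3 and Ikaros libraries 5 (33.3%) did, where 12.8% of all genes did. Tnf, Lta and Ltb of this list are neighbours that can share 1 region, so its genes are not separate counts. Of 22 ribosomal protein genes, 3 had one and 10 had Foxp3 with Ikaros only. Of 14 other housekeeping genes, none had all 4 (2 without those libraries) and 5 had Foxp3 with Ikaros only. CD8 T-cell and NK-cell markers had none in 10, myeloid markers 1 in 12 (Cd68), B-cell markers 2 in 12 (Cd79a and Cr2) and genes of other tissues 1 in 18 (Pecam1, which the naive list also holds). Ribosomal and cytokine genes are short, with medians of 3.996 and 3.59 kb, and the part of gene length was not tested.

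Regions of NFAT1 with p300 only were also found at genes of these lists. Such a region was at 2.83% of all genes, but at 10 of 25 Treg signature genes, 8 of 15 coinhibitory genes and 7 of 13 genes of TNF family ligands. Many of these genes had a region of all 4 factors too: 5 of the 10 Treg signature genes, Foxp3 and Ikzf2 among them, 3 of the 8 coinhibitory genes and 2 of the 7 TNF family ligands. Of the effector cytokines it was at 4 of 15, Ifng (interferon gamma) and the neighbours Tnf, Lta and Ltb, 3 genes of 1 cluster that share 1 such region. The list of TNF family ligands holds these 3 genes too, so 3 of its 7 genes share that region. These counts rested on the second libraries. Without the second Foxp3 library such a region was at 0.247% of all genes, at none of the Treg signature and effector cytokine genes, at 2 coinhibitory genes and at 1 TNF family ligand. Without the second Ikaros library it was at 0.256% of all genes and at none of these 4 lists.

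**Figure D5:**
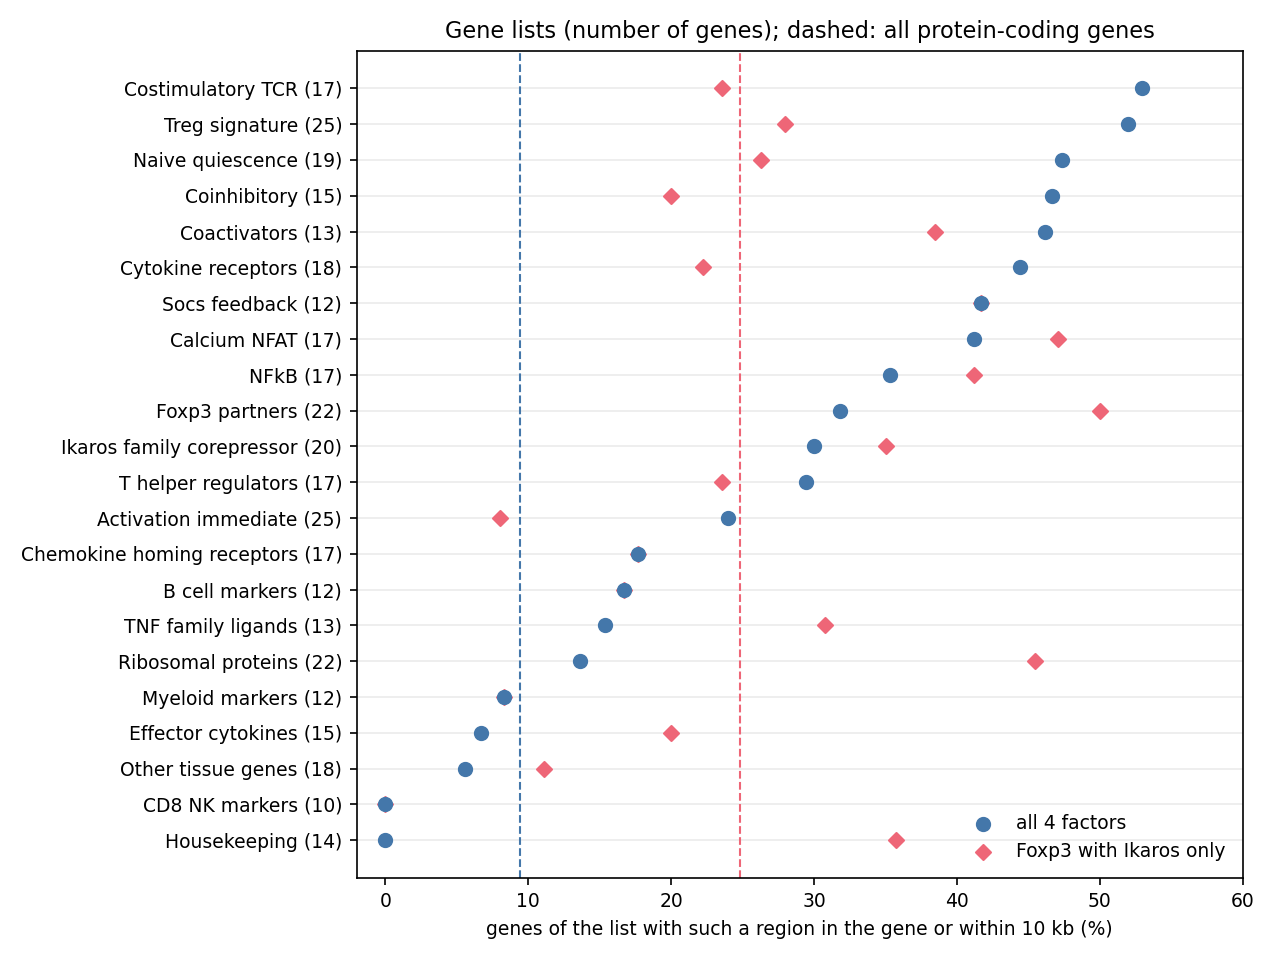
Share of the genes of each list (%) with a region of all 4 factors (circles) or of Foxp3 with Ikaros only (diamonds) in the gene or within 10 kb; the number of genes stands beside the name and dashed lines give the shares over all protein-coding genes, 9.42% and 24.8%. Costimulatory and Treg signature genes stand at 52.9% and 52% for all 4 factors, while housekeeping genes stand at 0% for all 4 and at 35.7% for Foxp3 with Ikaros only.

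At the genes of the targets, all 4 factors met at Foxp3, Ikzf1 and Nfatc2 but not at Ep300. Foxp3 (chrX:7579676-7595243, plus strand) had 2 regions. That at chrX:7583866-7584411, inside the gene and 3.66 kb downstream of the nearest start, had a peak in 8 of 8 factor libraries. The other, at chrX:7570671-7571239 and 8.72 kb upstream, counted as NFAT1 with p300, with Foxp3 and Ikaros peaks in library 1 only. Both lay in 1 H3K27ac region of 26806 bp. Ikzf1 had 6 regions, 3 of them of all 4 factors: 1 lay 6.89 kb upstream (chr11:11678737-11679331) and 2 inside the gene (chr11:11725927-11726565 and chr11:11741529-11742083). Nfatc2 had 6 regions, and all 4 factors met at chr2:168595540-168596270, inside the gene. Ep300, which encodes p300, had a single region of Foxp3 with Ikaros, 0.811 kb upstream of its start at chr15:81585031-81585774, with no NFAT1 or p300 peak in any library.

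Il2ra and Ctla4, a pair of receptors that Treg cells rely on, differed. Il2ra had 3 regions, of which 2 had a peak in 8 of 8 factor libraries: chr2:11635993-11636572, 6.51 kb upstream, and chr2:11653219-11653772, inside the gene and 10.7 kb downstream of the start. Ctla4 had 4 regions within a single H3K27ac region of 45459 bp, and none with all 4 factors. At chr1:60902414-60902997, 6.32 kb upstream of Ctla4, NFAT1 and p300 had a peak in both libraries, and Foxp3 and Ikaros in library 1 only. The region at its start, chr1:60908674-60909197, had NFAT1 in both libraries and Foxp3, Ikaros and p300 in library 1 only.

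Several of the genes with the most regions of all 4 factors encode regulators of lymphocytes. Foxp1, a forkhead repressor of naive T cells, had 7 in a gene of 597 kb with 32 regions in all. Hivep2, a zinc finger factor also called Schnurri-2, had 7 of 10 regions in 190 kb, so most of its regions held all 4 factors. Inpp4b, a phosphoinositide phosphatase, had 6 of 23 in 792 kb, and Bach2, a repressor of effector programmes, 5 of 21 in 348 kb. Ext1, a heparan sulphate polymerase, had 5 of 11. With 4 each, 13 genes were tied, of which Acoxl, Ahnak, Amz2, Cblb and Chd7 come first by name. Amz2, a short gene of 12.2 kb for a metallopeptidase, had all 4 factors at 4 of 4 regions. Acetylation set Acoxl apart: of its 9 regions 5 were in H3K27ac, against 30 of 32 at Foxp1 and 10 of 10 at Hivep2. At Foxp1, 5 further regions were of NFAT1 with p300 only and 4 of Foxp3 with Ikaros only; all 5 of the first kind had a Foxp3 peak in library 1 and none in library 2.

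Other combinations led at other genes. Foxp3, Ikaros and p300 without NFAT1 had their highest count at Tnrc6b, a protein of the microRNA silencing complex, with 4 regions and none of all 4 factors. Ikaros with NFAT1 and p300 had 4 at Arid5b, a DNA-binding factor, which had 3 of all 4 as well. Foxp3 with Ikaros only had 5 at Mrtfa, a coactivator of serum response factor, and 4 at Calr, the calcium-binding chaperone calreticulin, where no other region was found within 4.84 kb of gene and its flanks. Foxp3, NFAT1 and p300 without Ikaros never had more than 1 region per gene, over 95 genes.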

How the data were processed

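Peak lists of 10 WT ChIP-seq libraries were used. The lists deposited by the authors hold 3 columns, the position of a peak (chromosome, start, end), with no score or header; factor peaks are 500 bp wide. The build is mm10 and the processing tools are HOMER, bedtools, MACS2, Bowtie2 and FastQC, per the submitters' processing notes; their roles and versions, the threshold and the input used are not given in the sources used here. Read depth is unknown, because the lists hold no reads, so no depth-based error can be given; peaks per list ranged from 6850 to 53032, and no list was a copy of another. The members and gene lists were chosen with earlier results of these data known.

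Peaks of both libraries of a target were merged at 1 bp overlap, and the 4 factor sets were merged likewise, with Python 3.11.15, numpy 2.4.6, pandas 2.3.3 and SciPy 1.17.1. Tested on simulated lists, 15 of 15 combinations were recovered. Genes and promoter windows are from RefSeq GRCm38.p6, the assembly of mm10. Starts were at hand for 17492 of 21887 protein-coding genes and for none on chromosome 18, so start shares are over 19327 regions and are lower bounds. All 338 list genes matched. Exons, introns and UTRs were not told apart. Regions are not replicates, so tests use 1 value per library, and a p-value reflects only how far libraries of a target differ, perhaps for technical reasons. Genes named are the 10 with the most regions of all 4 factors, the leaders of other combinations (up to 3 each), up to 4 genes with most and 2 with none in each list, and 6 always named (Foxp3, Il2ra, Ctla4, Ikzf1, Nfatc2, Ep300); promoters printed are those of 5 lists, most motifs first. The remarks on Acoxl and Calr, genes named beside small counts (such as Ifng, Tnf and Cd68) and the gene-list counts without second libraries were chosen after values were seen. The 8 IkE5-deletion lists and 4 inputs without a list were not analysed here. Alternatives were the overlap, the library rule, each library left out, windows and the replicate block.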

Additional observations from a re-analysis of the deposited data

How the results depend on the processing

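Counts of regions depended on the library rule more than on the overlap. With a peak in either library enough, there were 38461 merged regions, 6934 of all 4 factors, 8462 of Foxp3 with Ikaros only and 4959 genes with all 4 factors, and 89.7% of the regions of all 4 factors were in H3K27ac. The libraries numbered 1 alone gave 5585 regions of all 4 factors, 3960 genes and 91.0% in H3K27ac; those numbered 2 alone gave 31855 merged regions, 7696 of Foxp3 with Ikaros only and a start share of 27.8% for all 4 factors. A window of 50 kb gave 4279 genes. Counting both ends of any gene, an alternative chosen after seeing the data, gave a start share of 28.4%. Each library was also left out in turn. All peaks of the target's other library then counted, which relaxes the rule of a peak in both. This gave 20343 to 28864 merged regions, 2525 to 3171 of all 4 factors and 2075 to 2479 genes. All of these lay above the main values of 19849, 2509 and 2062. Regions of Foxp3 with Ikaros only numbered 3203 to 6470. Of regions of all 4 factors, 94.0% to 98.2% were in H3K27ac and 21.8% to 26.2% near starts. Adjusted p-values of the exact permutation tests then ranged from 0.0952 to 0.0952 for H3K27ac and from 0.0190 to 0.305 for starts, which passed 0.05 at 0.0190 without the first and 0.0476 without the second Foxp3 library, with Foxp3 then a lone library assumed to vary like the other targets. Each fit without a factor library left its target with a lone library, so no conclusion is drawn from these p-values. With the replicate block, permuting within library number, both adjusted exact permutation p-values were 0.125. The numbers were not established as pairing: across the 19849 regions, differences between libraries 1 and 2 correlated at 0.27 for Foxp3 and Ikaros, at 0.14 and 0.13 for these with H3K27ac and between -0.04 and 0.05 for the others. Other settings, a 250 bp overlap among them, left values within 1.5 times or within the spread. No stricter peak threshold could be tried, because the lists carry no score, and without read depth a missing peak cannot be told from a peak under the threshold.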
